A study of Mus musculus with 6 samples.

Results

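Immediate early response genes are transcribed within minutes of a stimulus, before any new protein is made. The list described here holds 31 of them, transcription factors of the AP-1, EGR, NR4A and KLF families together with feedback and growth regulators, taken by gene name. All 31 had at least 1 probe, 47 probes in all of the 45281 on the array (which name 19057 genes). The filter on dim probes left 28 genes; Nr4a1, Klf10 and Ier5 did not pass it. The RNA came from the fundic gastric mucosa, the acid-secreting lining of the stomach, of C57Bl/6Ncr mice aged 3 months. Wild type mucosa was measured on 3 arrays and Lasp1 knockout mucosa on 3; Lasp1 is an actin-binding protein abundant in the acid-secreting parietal cells. The labels describe neither the knockout allele nor whether the arrays of a genotype came from different mice. The p-values therefore reflect the spread among these arrays, which may be technical.

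In textbook outline, growth factors, stretch, injury or hormones activate MAP kinases and other kinases, which act on transcription factors already bound at these promoters, among them SRF with its ternary complex partners, CREB and ATF proteins. The mRNAs are short-lived, so levels pass through a peak and fall again. Part of the list closes the loop: phosphatases of the DUSP family switch the kinases off, and Zfp36 destroys mRNAs. In the stomach and other epithelia some of them, such as Klf4, also have steady roles in differentiation.

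Values are Illumina probe intensities that the authors scaled to a median of 1000 on each array. For Lasp1 itself wild type replicates 1 to 3 gave 270957, 275068 and 177315, and knockout replicates 88521, 111002 and 89823, with no overlap. All 13 probes of Y-linked genes were dim (their brightest read 1020 to 1212, depending on the array) and Xist was bright (55746 to 88070), so the brightest Y-linked probe of an array served as its background. All 9 gastric marker genes with a probe, including Atp4a and Atp4b of the proton pump, were above that level on every array. Some arrays also carried RNA of neighbouring tissue. Summed over 9 acinar genes, pancreatic signal was 5128215 on wild type replicate 3 and 420195 on knockout replicate 3, against at most 138706 on the others. Squamous signal, summed over 11 genes, was 690913 on wild type replicate 2 and 1214946 on knockout replicate 1, against at most 42264 elsewhere. In such bulk RNA, fewer cells of a type and less RNA per cell cannot be told apart.

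No gene of the list passed the test between genotypes. By limma, which fits all 22640 kept probes together and adjusts by Benjamini-Hochberg, 0 of 28 kept genes had an adjusted p under 0.05 (0.994 for each of them), where 0.00883% of all probes passed. No probe that was lower in the knockout passed, so Lasp1 itself did not pass either (log2 difference -1.30, groups separated). Failing this test on 6 arrays therefore does not show equal levels. At an unadjusted p under 0.05 there were 8 of 28 genes, all higher in the knockout (Fos, Jun, Junb, Atf3, Egr1, Dusp1, Zfp36 and Ier3), where 1.73% of all probes had such a p and 1.63% had it with the knockout higher. In these 8 genes and in Egr2, the lowest knockout array exceeded the highest wild type array, which makes 9 of 28 genes against 6.17% of all probes (7.19% separated in either direction). The reverse separation was seen in 0 of 28 genes (1.02% of all probes). The call depends on how arrays are weighted: with array weights estimated from the data 8 of 28 genes passed, but so did 8.02% of all probes, with nearly all weight on wild type replicate 2.

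The log2 difference, knockout minus wild type, was above 0 for 25 of 28 genes, with a median of 0.30. The arrays as a whole lay the same way: 76.9% of all probes were above 0 and 23.1% below, with a median of 0.10. Quantile normalization, which gives every array the same distribution, brought the median of all probes to 0.0036 with 51.2% above 0. The immediate early genes then had 24 of 28 above 0 and a median of 0.15. Separated groups dropped to 2 genes, Junb and Atf3 (3.03% of all probes with the knockout above and 3.33% with it below), and an unadjusted p under 0.05 to 3 genes, Junb, Atf3 and Egr1 (1.7% of all probes). The count of genes with separated groups thus rests largely on how the arrays are scaled to each other, whereas the directions of most genes do not.

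**Figure D1:**
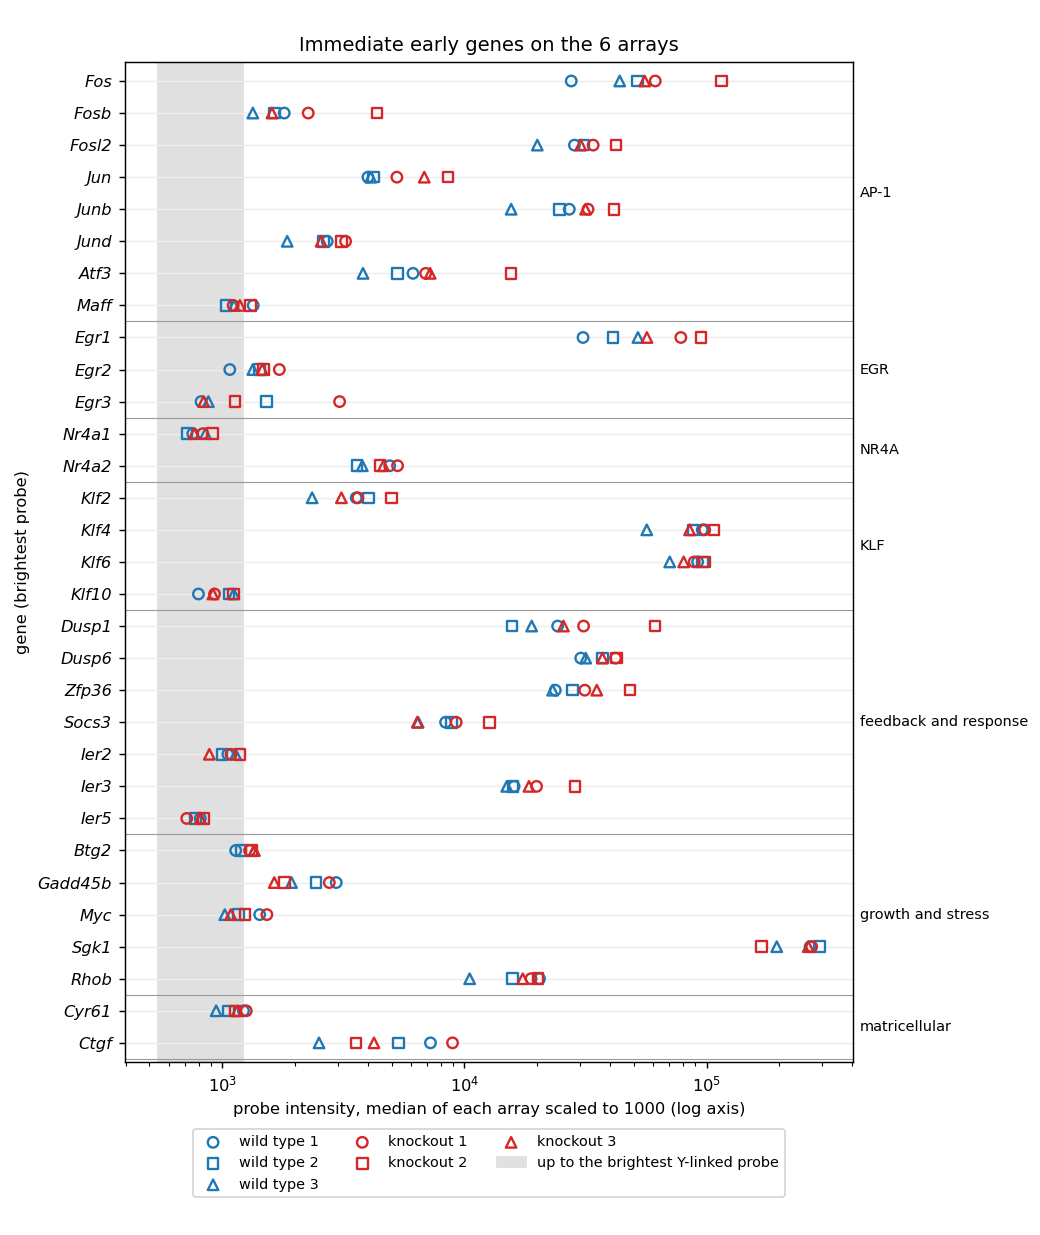
Intensity of the brightest probe of all 31 genes on each of the 6 arrays (x axis, log scale, array medians at 1000), grouped by family. Blue marks are wild type and red marks knockout arrays, the shape gives the replicate, and the grey band ends at the brightest Y-linked probe, 1212. The red square, knockout replicate 2, lies farthest right for Fos, Fosb, Atf3 and Dusp1, while Nr4a1, Klf10 and Ier5 stay inside the band.

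The knockout arrays were not alike. Knockout replicate 2 was the highest of the 6 arrays for 16 of 28 genes, or 57.1%, where it was the highest for 21.4% of all kept probes. In the deposited values these were 6 of 8 AP-1 genes, 1 of 3 EGR genes, all 3 kept KLF genes and all 6 kept feedback genes, with none of the 5 growth and stress genes and neither matricellular gene. After quantile normalization the count was again 16 of 28, against 16.9% of all probes, but the genes were not all the same. Knockout replicate 2 was then the highest for all 8 AP-1 genes, 1 EGR gene, 2 of 3 KLF genes (not Klf6), 4 of 6 feedback genes (not Dusp6 or Ier2) and 1 growth gene, Rhob. Wild type replicate 3 was the lowest for 14 of 28 genes, which is below its share over all probes (64.9%). After quantile normalization it was the lowest for 10 of 28, which is above its share (26.5%). Wild type replicate 1 was the lowest for 7 of 28 genes (5.06% of all probes), and for 9 of 28 after quantile normalization (12.5% of all probes). In the deposited values it was the highest for 3 of 28 (30.4% of all probes). Knockout replicate 1 was above the mean of the 6 arrays for 27 of 28 genes (68.4% of all probes), but for 18 of 28 after quantile normalization (46.1% of all probes). Knockout replicate 3 was above it for 14 of 28 (49.4% of all probes). Leaving out knockout replicate 2 left 3 genes, Jun, Egr1 and Zfp36, with an unadjusted p under 0.05 (0.437% of all probes), and leaving out wild type replicate 3 left 5, Fos, Jun, Junb, Egr1 and Zfp36 (1.49% of all probes).

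**Figure D2:**
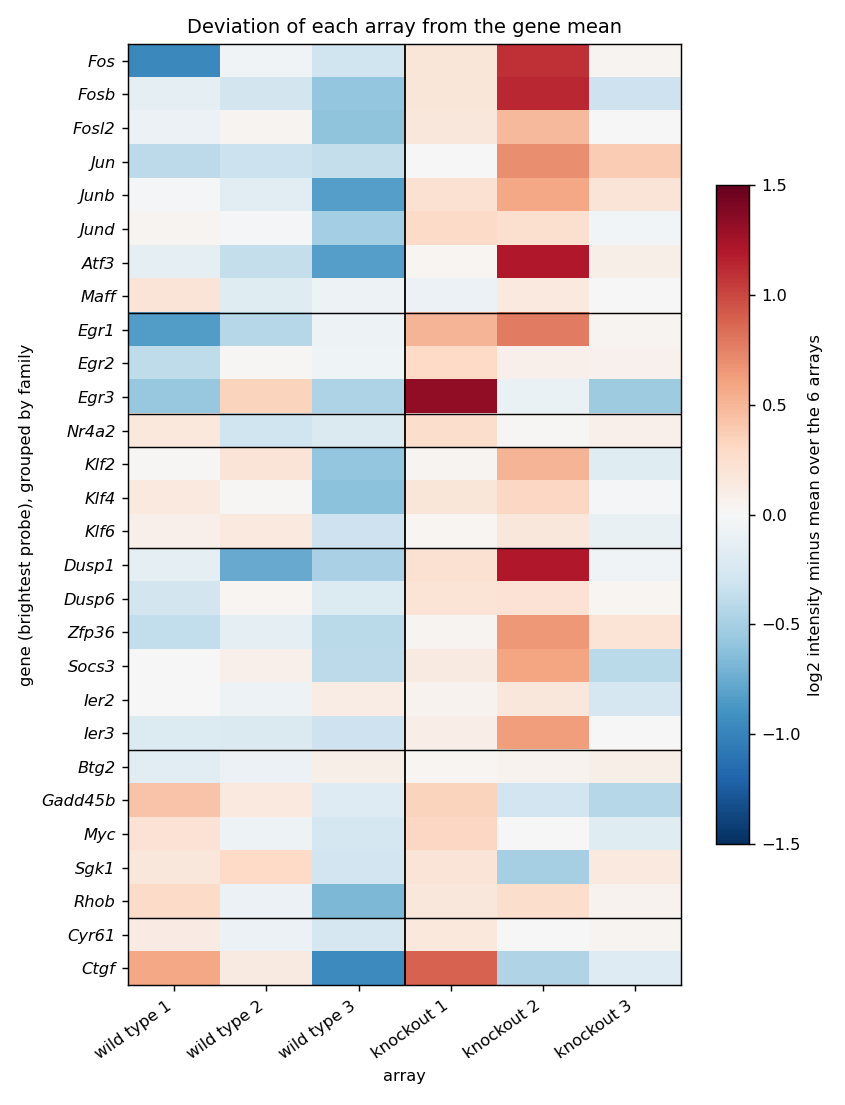
Log2 intensity of each kept gene minus its mean over the 6 arrays, by array (columns) and gene (rows, families separated by lines). Red is above and blue below the gene mean. The column of knockout replicate 2 is darkest red for Dusp1 (1.21), Atf3 (1.20), Fosb (1.13) and Fos (1.10), and Egr3 stands out on knockout replicate 1 (1.33).

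Promoter sequences are shown for genes that shared a high value on knockout replicate 2. RefSeq promoters of GRCm38.p6 matched 25 of the 31 genes (not Egr1, Egr3, Klf10, Ier2, Myc or Ctgf), and the 250 bases before the first listed start were searched on both strands. Below are those of Fos, Junb, Dusp1 and Zfp36, which are among the genes with separated groups that carry a match. Matches are in capitals.
Fos, chr12:85473640-85473889, + strand: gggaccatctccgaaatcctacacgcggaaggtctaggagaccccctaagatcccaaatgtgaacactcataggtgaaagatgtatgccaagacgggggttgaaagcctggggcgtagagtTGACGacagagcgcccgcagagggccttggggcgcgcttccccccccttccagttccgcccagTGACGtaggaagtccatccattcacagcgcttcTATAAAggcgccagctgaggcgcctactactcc
Junb, chr8:84978749-84978998, - strand: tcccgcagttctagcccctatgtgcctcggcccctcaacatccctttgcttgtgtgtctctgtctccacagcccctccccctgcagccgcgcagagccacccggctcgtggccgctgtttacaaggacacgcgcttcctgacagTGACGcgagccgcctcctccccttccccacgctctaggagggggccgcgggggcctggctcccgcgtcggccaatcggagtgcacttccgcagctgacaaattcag
Dusp1, chr17:26508473-26508722, - strand: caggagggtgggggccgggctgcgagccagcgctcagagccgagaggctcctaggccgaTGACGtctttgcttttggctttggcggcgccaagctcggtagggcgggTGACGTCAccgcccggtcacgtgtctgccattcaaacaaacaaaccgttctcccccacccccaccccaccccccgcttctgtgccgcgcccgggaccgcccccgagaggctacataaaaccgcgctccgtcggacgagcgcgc
Zfp36, chr7:28379229-28379478, - strand: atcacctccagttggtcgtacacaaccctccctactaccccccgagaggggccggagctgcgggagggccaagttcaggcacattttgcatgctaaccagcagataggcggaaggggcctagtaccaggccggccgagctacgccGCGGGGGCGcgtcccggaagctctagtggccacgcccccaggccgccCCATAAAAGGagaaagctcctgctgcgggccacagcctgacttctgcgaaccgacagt
Each is written 5′ to 3′ along the gene and ends at the base before the start site.

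The capitals mark matches to 5 motifs in these sequences. The core TGACG of the cyclic AMP response element, bound by CREB and ATF proteins, occurs in Fos at 129 to 125 and 66 to 62 bases before the start and in Junb at 106 to 102. Dusp1 holds the full element, TGACGTCA, at 143 to 136, which contains the core on both strands, and a further core at 191 to 187. Zfp36 has an EGR site, GCGNGGGCG, at 105 to 97 and a CArG box, the site of SRF, at 58 to 49. Fos has a TATAAA box at 33 to 28. Atf3, which also had separated groups and its highest value on knockout replicate 2, holds a core at 7 to 3 and is not shown.

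Over the 25 promoters, 11 (44%) held the core, against 17.9% of the first-listed promoters of 27025 genes. The full element was in 2, Dusp1 and Btg2 (8% against 1.62%), and the EGR site in 10 (40% against 4.65%). Among these 10 were Fosb, Klf4 and Socs3, highest on knockout replicate 2, but also Nr4a2 and Gadd45b, which were not. The CArG box was found in 1 (4% against 1.4%), TATAAA in 4 (16% against 13%) and the AP-1 site TGANTCA in 0 of 25 (6.87% of all). None of the motifs searched was found in Jun, Egr2 or Ier3. Sites more than 250 bases before the start were not searched, and Egr1 had no promoter to search, so absence here does not show that a gene lacks a site. A match is a run of letters in a short window and shows no binding. The promoters compared were not matched for base composition, and the EGR site is all G and C apart from its N. The part of base composition in these shares was not tested.

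The FOS proteins are inducible components of the AP-1 dimer, which pairs a FOS with a JUN protein through leucine zippers. Fos intensity was 27625, 51982 and 43806 on wild type replicates 1 to 3, and 61412, 115355 and 55542 in the knockout. Wild type replicate 1 was low and knockout replicate 2 high, by 1.88 times over the next array, and the groups did not overlap. Mean intensity was 41138 ± 12396 in wild type and 77436 ± 32969 in knockout mucosa (SD, n = 3 each). This was a 1.84-fold higher geometric mean (log2 difference 0.88, SE 0.34). The exact two-sided permutation p was 0.1, the smallest that 3 against 3 arrays can give. Without knockout replicate 2 the difference was 0.55.

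Fosb, whose protein acts like Fos, read 1802, 1646 and 1337 in wild type and 2264, 4357 and 1604 in knockout samples. Its groups overlapped, since knockout replicate 3 lay below 2 wild type arrays, and its log2 difference of 0.67 (SE 0.35) was 0.27 without knockout replicate 2. Fosl2, the FOS member with a slower and longer response, read 28477, 31187 and 20006 against 34020, 42339 and 30238. These groups also overlapped (0.43, SE 0.21, and 0.24 without wild type replicate 3), and its other 2 probes were at or near background on all arrays.

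Of the JUN genes, Jun, the partner that FOS proteins bind and an autoregulated gene, had the smallest p of the list. Jun intensity was 3995, 4221 and 4101 in wild type samples and 5262, 8547 and 6827 in knockout samples. The wild type values lay within a narrow band (4106 ± 113), while the knockout values were spread out and all above it (6879 ± 1643, SD, n = 3 each). The log2 difference was 0.72 (SE 0.19, 1.64-fold; limma p = 0.00646 before adjustment, exact permutation p = 0.1). Its range over the 18 alternative analyses was 0.52 to 0.92. The narrow wild type band held for the deposited values only. After quantile normalization the wild type arrays lay at -0.58, -0.30 and 0.06 around the gene mean (log2). The knockout arrays then lay at -0.18, 0.61 and 0.39, so the groups overlapped. The difference was then 0.55 (SE 0.24), and its unadjusted limma p was not under 0.05.

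Junb, a JUN protein that can restrain Jun, read 27111, 24699 and 15596 against 32411, 41433 and 31665. The groups did not overlap, with wild type replicate 3 the low array, and the difference was 0.68 (SE 0.23, 1.60-fold). It was 0.43 without wild type replicate 3. Jund, the JUN gene expressed most steadily in resting cells, read 2712, 2617 and 1854 against 3230, 3107 and 2559, and its groups overlapped (0.32, SE 0.19, and 0.15 without wild type replicate 3).

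Atf3, a stress-induced repressor of the ATF group, read 6133, 5290 and 3812 in wild type and 6916, 15568 and 7218 in knockout samples. Knockout replicate 2 read 2.16 times the next array, and the groups did not overlap. The log2 difference was 0.88 (SE 0.34, 1.85-fold) and 0.50 without knockout replicate 2. Maff, a small MAF protein, was near background, at 1034 to 1342 in wild type and 1109 to 1308 in knockout samples. For the 8 AP-1 genes the median difference was 0.67 (0.51 after quantile normalization), with all 8 above 0 (76.9% of all probes). The groups were separate for 4 of the 8 in the deposited values (6.17% of all probes) and for 2, Junb and Atf3, after quantile normalization (3.03%). Leukocytes also express several of these genes: over 6 marker genes their summed signal was 15767 to 24481 in wild type and 19450 to 28975 in knockout samples, and its part in the AP-1 values was not tested.

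The EGR genes encode zinc finger factors that bind a GC-rich site, and Egr1 is the member most widely induced by growth factors. Egr1 read 30901, 41070 and 52098 in wild type and 78345, 94841 and 56743 in knockout samples. All 3 knockout arrays lay above the wild type arrays, with knockout replicate 3 only just above wild type replicate 3. Means were 41356 ± 10601 and 76643 ± 19106 (SD, n = 3 each). The geometric mean was 1.85-fold higher in the knockout (log2 difference 0.89, SE 0.26). Over the 18 alternatives the log2 difference ranged from 0.70 to 1.27.

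Egr2, known from nerve myelination and immune tolerance, was dim: 1074, 1422 and 1337 against 1720, 1480 and 1462. The groups were separate by a small margin (0.29, SE 0.15, and 0.17 without wild type replicate 1). Egr3, a relative that acts in neurons and lymphocytes, was high on the arrays that carried squamous transcripts: 1525 on wild type replicate 2 and 3051 on knockout replicate 1, and 817 to 1128 on the other 4. Its groups overlapped (0.47, SE 0.49), and the difference was -0.08 without knockout replicate 1 and 0.20 without both arrays. The second Egr3 probe did not share this pattern and read 1088 to 1271 on all 6 arrays. The squamous list, with all 11 genes detected on at least 1 array, summed to 23094 to 690913 in wild type and 34415 to 1214946 in knockout samples, and its part in the Egr3 values was not tested.

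The NR4A genes encode orphan nuclear receptors that are active without a ligand. Nr4a1 was not above background on any array (716 to 852 in wild type and 766 to 911 in knockout samples) and was not tested. Nr4a2 was detected on all 6 arrays, at 4914, 3598 and 3787 against 5294, 4480 and 4632. Wild type replicate 1 lay within the knockout range, and the log2 difference was 0.24 (SE 0.16), or 0.15 without wild type replicate 2 and 0.38 without wild type replicate 1.

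Krüppel-like factors bind GC-rich and CACCC sites. Klf4, a factor of differentiated epithelium, read 96044, 88251 and 56665 in wild type and 98259, 107525 and 85121 in knockout samples on its brightest probe. The low value was wild type replicate 3, the groups overlapped, and the difference was 0.30 (SE 0.22). All 3 Klf4 probes had their highest value on knockout replicate 2 and their lowest on wild type replicate 3, with differences of 0.30, 0.35 and 0.30. Without wild type replicate 3 the brightest probe differed by 0.07.

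Klf6, a broadly expressed injury-response factor, read 91927, 96318 and 70487 against 88967, 98163 and 80486. Its log2 difference of 0.06 (SE 0.16) turned to -0.09 after quantile normalization. A dimmer Klf6 probe gave 0.23 with separated groups (4031 to 5080 against 5143 to 5701), so the 2 probes disagree on separation. Klf2, which is best known from endothelial cells and resting T cells, read 3573, 4010 and 2349 against 3630, 4993 and 3104, with overlapping groups (0.25, SE 0.26) and a difference of 0.02 without wild type replicate 3. Endothelial signal, summed over 8 genes, was also lowest on wild type replicate 3 (13698, against 20047 to 38562 on the other 5 arrays), and its part in the Klf2 values was not tested. Klf10, a TGF-beta-induced factor, was not above background on any array. The log2 differences of Klf2 and Klf4 stayed above 0 under the 3 other scalings run (quantile, cyclic loess, and normexp followed by quantile), whereas that of Klf6 was below 0 under all 3.

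Among the feedback genes, Dusp1 encodes the phosphatase that inactivates p38, JNK and ERK kinases. It read 24272, 15696 and 18960 in wild type and 31061, 61300 and 25636 in knockout samples. Knockout replicate 2 read 1.97 times the next array, and the groups did not overlap. Means were 19642 ± 4329 and 39332 ± 19217 (SD, n = 3 each). The geometric mean was 1.89-fold higher in the knockout (log2 difference 0.92, SE 0.34). The difference was 0.55 without knockout replicate 2.

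Dusp6, which prefers ERK, showed a smaller and more even difference. It read 30241, 37255 and 31689 against 42107, 42452 and 37159. Knockout replicate 3 lay just below wild type replicate 2, so the groups overlapped on this probe (0.30, SE 0.13). On a second, dimmer probe they did not (8256, 10164 and 9731 against 12075, 11727 and 12096, a difference of 0.36, SE 0.12). Its remaining probe gave 0.17.

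Zfp36 encodes tristetraprolin, which binds AU-rich elements and destabilises inflammatory mRNAs. Values were 23738, 27956 and 23141 in wild type and 31418, 48206 and 35226 in knockout samples. The groups did not overlap, and the means were 24945 ± 2624 and 38283 ± 8802 (SD, n = 3 each). The log2 difference was 0.60 (SE 0.19, 1.51-fold). Ier3, a regulator of survival after stress, read 16040, 15872 and 14964 against 19864, 28602 and 18479, again with separated groups (0.49, SE 0.18, 1.40-fold). Its difference was 0.29 without knockout replicate 2.

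Socs3, the inhibitor of JAK and STAT signalling, did not follow this separation. It read 8362, 8848 and 6440 against 9247, 12677 and 6387, with the lowest value of all on knockout replicate 3 (0.22, SE 0.26). Its difference was -0.02 without knockout replicate 2. Ier2, a nuclear growth-response protein, was above background on 1 array only (884 to 1181 over the 6 arrays), and Ier5, a relative of it, on none (713 to 837).

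Among the growth and stress genes, Sgk1, a kinase that glucocorticoids and salt balance induce, read 267916, 293503 and 195056 in wild type and 271823, 168312 and 263345 in knockout samples. Here knockout replicate 2 was the lowest array, and the difference was -0.12 (SE 0.24), or 0.11 without that array. Gadd45b, a stress sensor upstream of p38 and JNK, read 2955, 2434 and 1931 against 2767, 1811 and 1639, a difference of -0.25 (SE 0.24) with overlapping groups. It was -0.10 without knockout replicate 3 and -0.48 without knockout replicate 1, and its second probe gave -0.08.

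Rhob, a short-lived endosomal GTPase, read 20425, 15803 and 10512 against 18840, 20166 and 17412 (0.32, SE 0.24). The low value was wild type replicate 3, and without it the difference was 0.06. Myc, the growth regulator, was above background on 3 arrays only, at 1024 to 1427 in wild type and 1084 to 1528 in knockout samples (0.09, SE 0.18). Btg2, an antiproliferative gene that p53 induces, was just above background on all 6 arrays, 1136 to 1354 against 1296 to 1354 (0.11, SE 0.12, and 0.06 without wild type replicate 1). The median of these 5 genes was 0.09, close to the 0.10 of all kept probes.

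Ctgf and Cyr61 encode secreted matricellular proteins and are targets of SRF and of the stretch-sensitive YAP pathway. Ctgf read 7241, 5333 and 2509 in wild type and 8932, 3563 and 4231 in knockout samples. High and low values occurred in both groups, and the difference was 0.16 (SE 0.48), turning to -0.24 without knockout replicate 1 and -0.28 without wild type replicate 3. Smooth muscle signal, summed over 7 genes of which 5 were above background on every array and Cnn1 on none, was 109787, 67439 and 39996 in wild type and 248020, 64848 and 51076 in knockout samples. The highest and the lowest array of Ctgf and of this sum were thus the same, and the part of smooth muscle RNA in the Ctgf values was not tested. Cyr61 was near background on its brightest probe (943 to 1223 against 1126 to 1256), with a difference of 0.14 (SE 0.14), or 0.05 without wild type replicate 3.

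**Figure D3:**
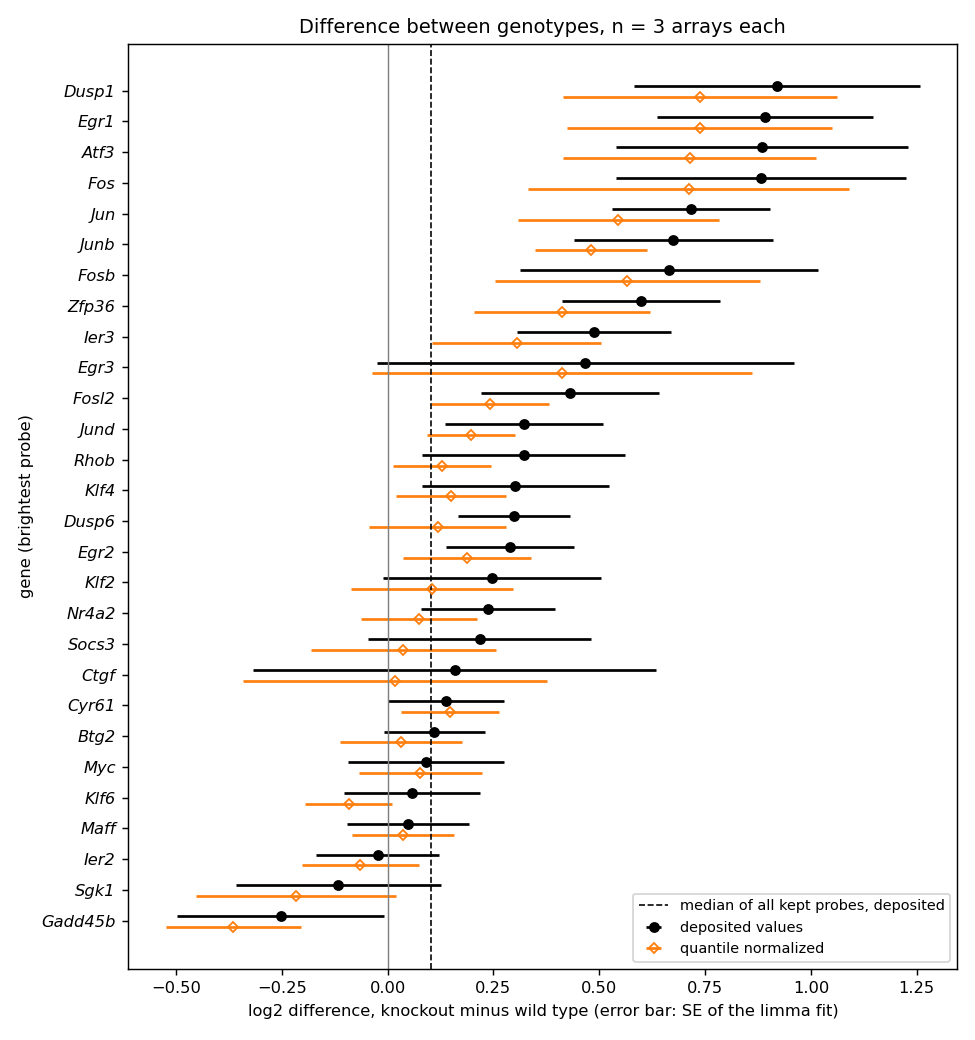
Log2 difference between 3 knockout and 3 wild type arrays for the 28 kept genes, in order of size, as deposited (black) and after quantile normalization (orange), with the SE of the limma fit. The dashed line is the median of all kept probes, 0.10. Dusp1, Egr1, Atf3 and Fos lie highest (0.88 to 0.92) and Gadd45b lowest (-0.25), and none passed the adjusted threshold.

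The titles carry a number from 1 to 6 that the labels do not explain. Over the whole table, arrays numbered 1 to 3 (wild type replicates 1 and 2, knockout replicate 1) can be compared separately from those numbered 4 to 6, although each set then holds 1 array of one genotype and has no test. The median difference of the 28 genes was 0.28 in the first set and 0.55 in the second, where all kept probes had 0.04 and 0.29. Egr1 was the larger in the first set (1.14 against 0.49) and Dusp6 was even (0.33 in each), whereas Jun (0.36 and 0.90), Junb (0.32 and 1.22) and Atf3 (0.28 and 1.48) were larger in the second. The only wild type array of the second set was replicate 3, the lowest array for Junb, Atf3 and 64.9% of all probes. With the set as a block in the fit, 0 of 28 genes passed (smallest adjusted p = 0.399), and the median was 0.43 against 0.17 for all probes.

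Of 45 further immediate early genes, 36 were kept and 0 passed in either direction. Of these 36, 30 were above 0 (76.9% of all probes). Their median was 0.20 (0.04 with 27 above 0, against 51.2% of all probes, after quantile normalization). Those of smallest p were Nfkbiz, an inhibitor-like NF-kappaB cofactor (0.59, SE 0.20), the EGF receptor ligand Hbegf (0.59, SE 0.23), Tob1, an antiproliferative gene (0.50, SE 0.20), and Gadd45g, a relative of Gadd45b (-0.42, SE 0.16). Hbegf read 5334, 4866 and 3741 in wild type and 6574, 9214 and 5494 in knockout samples, with separated groups and its highest value on knockout replicate 2. That array was the highest for 15 of these 36 genes, against 21.4% of all probes.

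Of 40 kinases, adaptors and prebound factors upstream of the response, 27 were kept and 0 passed. Of these 27, 22 were above 0 (76.9% of all probes), and their median was 0.12 (-0.0059 after quantile normalization). Map2k2, a kinase of the ERK cascade (0.24), Egfr, the EGF receptor (0.26), Mrtfb, a coactivator of SRF (-0.12), and Map2k3, a kinase of the p38 pathway (0.23), had the smallest p. Knockout replicate 2 was the highest for 8 of the 27, against 21.4% of all probes. Dimer partners and corepressors, 13 kept of 15, had 12 above 0 (76.9% of all probes) and 0 passing. Their median was 0.17 (0.05 after quantile normalization). Their leading members were Mxi1 (0.28), Batf (0.20), Pcbd1 (-0.25) and Mxd1 (0.37).

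Heat shock genes, all 13 kept with 0 passing, had a median of 0.18 (0.02 after quantile normalization) and were highest on knockout replicate 3 for 8 of 13 genes (12.3% of all probes) and on knockout replicate 2 for 2 (21.4%). Hsp90aa1 (0.46), Hspe1 (0.25), Hspd1 (0.23) and Hsph1 (0.61) led that list. Glucocorticoid and clock genes, which include Sgk1, had 14 kept of 15 and 0 passing. Of these 14, 10 were below 0 (23.1% of all probes), and their median was -0.11 (-0.24 after quantile normalization). Knockout replicate 2 was the lowest array for 8 of these 14, against 6.12% of all probes. By p, Per1 (-0.79), Zbtb16 (0.18), Errfi1 (0.20) and Mt2 (-0.50) led. Fkbp5, a glucocorticoid-induced chaperone, read 10102, 12083 and 5817 in wild type and 14577, 3118 and 6770 in knockout samples, and the clock gene Per1 read 15420, 8389 and 7284 against 6029, 3819 and 7947. The array on which Fos, Atf3 and Dusp1 were highest was therefore the one on which Fkbp5, Per1 and Sgk1 were lowest. Sgk1 is itself in the 31-gene list, and Per1 and Errfi1 are also among the 36 further immediate early genes kept.

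**Figure D4:**
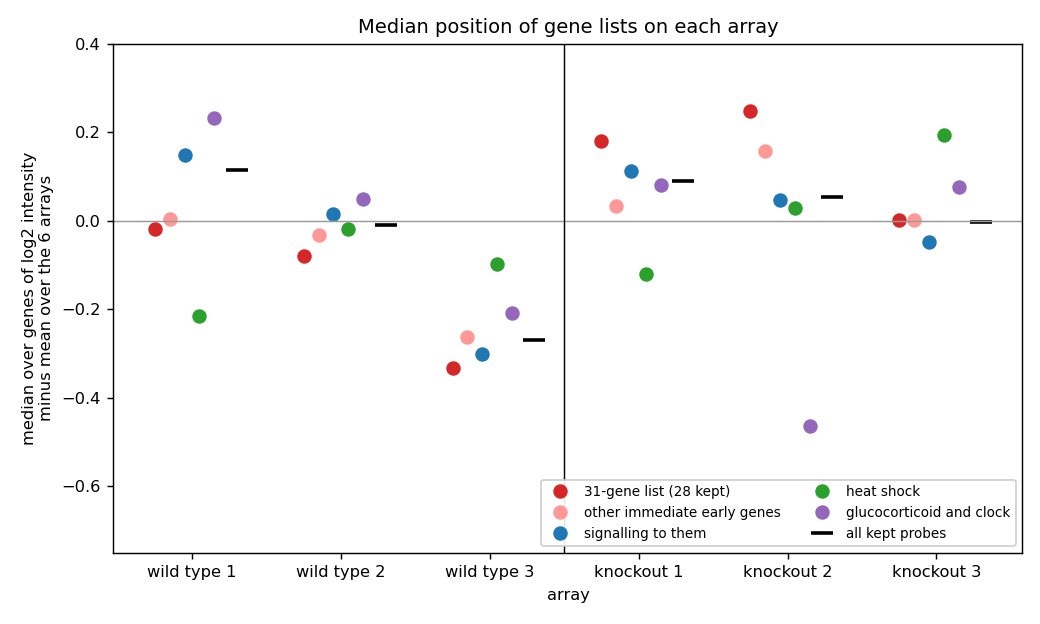
Median over genes of log2 intensity minus the gene's mean over the 6 arrays, for the 31-gene list, 4 companion lists and for all kept probes (black dashes), by array. On knockout replicate 2 the 28 kept genes of the 31-gene list lay at 0.25, all probes at 0.05 and the glucocorticoid and clock genes at -0.46.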

How the data were processed

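Per the labels' protocols, total RNA was turned into biotinylated cRNA for Illumina arrays. The deposited values are linear probe intensities, which the authors scaled to a median of 1000 per array with background not subtracted, as the values show (no value is below 541.9); folds of dim probes are therefore understated. The sources used here do not name scanner software or filters.

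Probes were named from the platform annotation or the current symbol of the same gene (34885 with 1 symbol, 18 with several, 10378 with none). Intensities were floored at 16, which changed none, and log2 transformed. A probe was kept if its mean log2 value exceeded the median probe's (22640 probes). The two-sided test of knockout against wild type used limma 3.58.1 (lmFit, eBayes; R 4.3.3), and a probe passed at 0.05 after Benjamini-Hochberg adjustment across the kept probes. A gene is given by its brightest probe. Single genes had an exact permutation test. Each array's precision is set by signal over background and the comparison's by the 6 arrays. The fit and the motif search were tested on simulated data. Alternatives were other normalizations, filters, probe rules and variance models, array weights, blocks, and leaving out arrays; leaving out both arrays high in pancreatic transcripts was added after seeing the data. The genes named were all members, and up to 4 of smallest p per companion list; Fkbp5 and the values given for Hbegf and Per1 were singled out after their values were seen. Members and lists were chosen with earlier results of these data known. Figures used matplotlib 3.10.9 in Python 3.11.15.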

Additional observations from a re-analysis of the deposited data

How the results depend on the processing

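The main analysis called 2 probes of the array and 0 immediate early genes. With array weights 1816 probes and 8 of these genes passed (8.02% of all probes; Jun, Junb, Atf3, Egr1, Nr4a2, Dusp1, Zfp36 and Ier3), where wild type replicate 2 had a weight of 38.8 and the other arrays no more than 1.6, and the estimation stopped before convergence; adjusted p for Jun was 0.0314. At an unadjusted p, 392 probes and 8 genes passed. No probe passed with the replicate block, the stricter filter, or without both squamous or both pancreatic arrays (0 each). Leaving out 1 array gave 0 to 3 probes and 0 genes each time. Deviations of same-numbered replicates from their group means correlated at 0.0445, -0.299 and 0.527. These values differ in sign and cannot settle whether the numbers pair the samples. With the replicate block 0 immediate early genes passed, 25 were above 0 and the median stayed at 0.30. Without 1 array the median was 0.19 to 0.40 and 22 to 26 genes were above 0. The median moved to 0.15 with quantile, 0.13 with cyclic loess and 0.14 with normexp and quantile normalization. No alternative made it negative.

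Of the single genes, 8 turned sign under at least 1 alternative. With array weights the log2 difference of Ctgf was -0.32, of Egr3 -0.39, of Ier2 0.083 and of Klf6 -0.088. Without both pancreatic arrays Ctgf was -0.14, Ier2 0.14 and Klf6 -0.0099, and without both squamous arrays Ctgf was -0.13 and Myc -0.060. Klf6 was -0.12 with cyclic loess, -0.0924 with quantile and -0.0922 with normexp and quantile normalization. Blocking on the set of title numbers gave Sgk1 0.033. Leaving out each array in turn gave ranges of -0.28 to 0.49 for Ctgf, -0.084 to 0.85 for Egr3, -0.11 to 0.095 for Ier2, -0.082 to 0.14 for Klf6, -0.033 to 0.15 for Maff, -0.043 to 0.22 for Myc, -0.29 to 0.11 for Sgk1 and -0.023 to 0.47 for Socs3. The cause was not tested. Probes near background, such as those of Ier2, Maff, Myc and Egr3, limit what these arrays can resolve.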
